A study of Mus musculus with 6 samples.

Results

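Astro1 is the largest of the 3 astrocyte clusters in the authors' map of the mouse olfactory bulb. Its members were the cells that the deposited annotation assigns to the cluster of that name, 3130 of 51426 annotated cells in 38 clusters. RNA of single cells was counted in 6 libraries of C57BL/6NJ olfactory bulb, each from 3 pooled mice at 14 weeks of age, and a unique molecular identifier (UMI) stands for 1 captured RNA molecule. The control libraries are labelled as having had no manipulation, while the study's text also names the open side of occluded mice as control. The naris occluded libraries came from bulbs deprived of odour input by closing a nostril, and the trained libraries from water-deprived mice that learned to discriminate odours for a water reward, both over 6 weeks. Each condition had 2 libraries. The study used male and female mice without giving the sex of a pool, and Xist and Y-linked counts placed replicate 1 of every condition as male and replicate 2 as female. The p-values for genes rest on the spread between 2 pools a condition, shared over conditions and genes. Those pools also differed in sex, which the main fit did not block on.

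Astrocytes are glial cells that clear glutamate and GABA from around synapses, buffer extracellular potassium, move water through Aqp4 channels at blood vessels, pass metabolites to each other through connexin gap junctions, and supply lipids to neurons through Apoe particles. In the olfactory bulb they surround the glomeruli, where sensory axons contact mitral and tufted cells, and they are present in the granule cell layer, where adult-born neurons are added throughout life. Gfap, the intermediate filament protein by which astrocytes are often recognised, is carried by some astrocytes far more than by others.

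Most of the markers bore out the label. Of 14 astrocyte genes, 9 had their highest level of all 38 clusters in Astro1, namely Aqp4, Slc1a2, Slc1a3, Aldoc, Gja1, Aldh1l1, Slc6a11, Ntsr2 and Atp1b2. The others, Gjb6, S100b, Sox9, Agt and Gfap, the marker the study gives for its astrocytes, were highest in another cluster. Slc6a11, a GABA transporter, was at 3109 CPM (the gene's UMIs scaled to a common total for all genes) in the pooled Astro1 cells, and the highest level outside the astrocyte clusters was 368 CPM, in the endothelial cluster EC2. After each cell was thinned to 500 UMIs, a Slc6a11 UMI was found in 74.1% of Astro1 cells and in 2.5% of cells of the endothelial cluster EC1, which should lack the gene (95.7% and 7.84% before thinning, at median depths of 1851.5 and 1621 UMIs). For Gfap the shares were 9.55% and 1.27% after thinning and 27.5% and 4.36% before. Gfap was thus found in Astro1 above the share in EC1, but at a lower level than in Astro2 and Astro3, as described below.

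The Astro1 cells held 6197707 UMIs, between 805105 and 1272252 per library from 385 to 654 cells. A cell had a median of 1851.5 UMIs, 972.5 genes and 11.1% mitochondrial UMIs. Astro2 had 336 cells of like depth, between 33 and 82 per library, with 1859.5 UMIs and 8.44% of them mitochondrial in the median cell. Astro3 had 1780 cells that were shallower and richer in mitochondrial RNA, with 708.5 UMIs and 23.6% of them mitochondrial in the median cell. Of the 3130 Astro1 cells, 200 had a barcode that also occurred in another library, and 16 of these matched another Astro1 cell. Clusters were drawn by the authors from the expression of these same genes, so every level set between clusters is a description and carries no test.

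**Figure D1:**
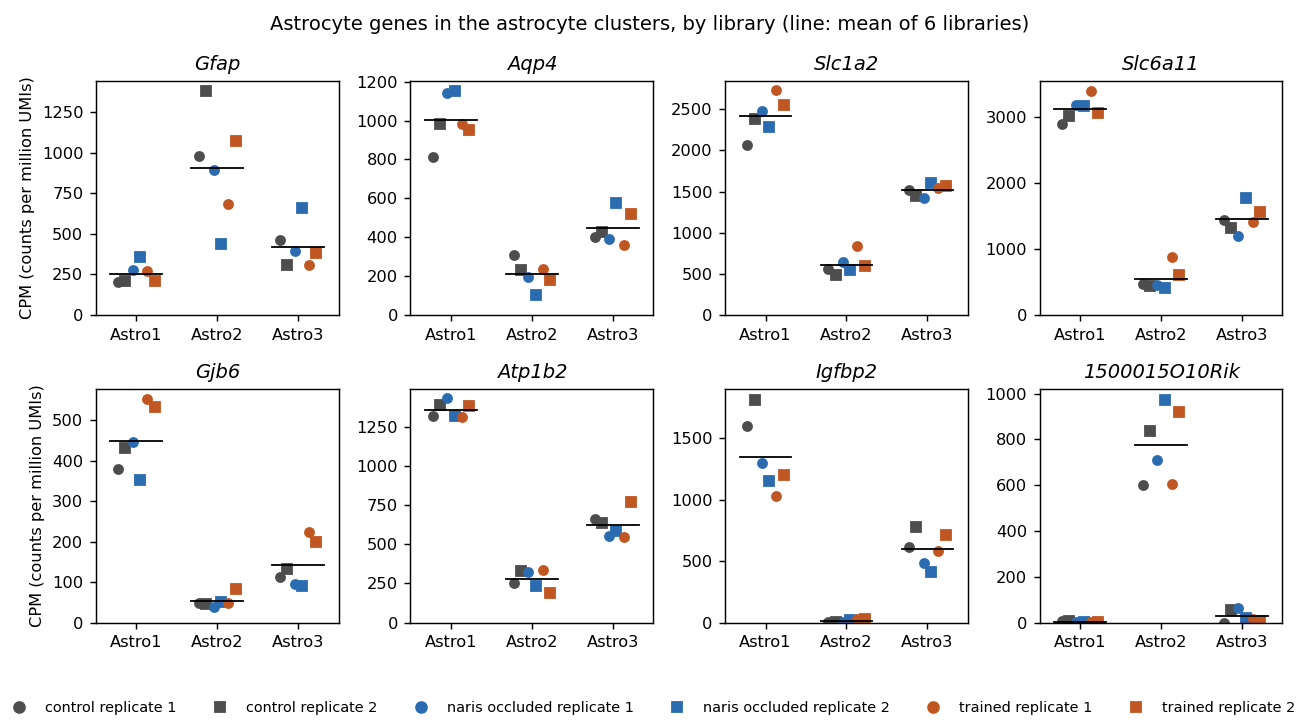
CPM of 8 genes in Astro1, Astro2 and Astro3 (vertical axes, linear, from 0), 1 point per library, coloured by condition, with a circle for replicate 1, a square for replicate 2 and a line at the mean of the 6 libraries. Aqp4, Slc1a2, Slc6a11, Gjb6, Atp1b2 and Igfbp2 were higher in Astro1 than in both other clusters in all 6 libraries, Gfap was lower in all 6, and 1500015O10Rik was close to absent from Astro1.

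Among all cell types, Astro1 was the cluster with the highest level of 282 of the 2953 genes that reached 50 CPM in it. Of the 2953 genes, 112 were at least 2-fold and 40 at least 4-fold above every cluster outside the astrocytes. The genes that set Astro1 furthest apart from clusters outside the astrocytes were Cxcl5, a chemokine that attracts neutrophils (75 CPM against at most 5.90 outside the astrocytes), Slc39a12, a zinc transporter (414 against 40.9 CPM), and Cldn10, a claudin (995 against 106 CPM). They were followed by Btbd17, Eva1a, Slc6a11, Chrdl1, Slc7a10, Fgfr3 and Aqp4, with log2 ratios to the next cell type between 2.94 and 3.10. For 7 of these 10 genes the next cell type was EC2, a smaller endothelial cluster. This ranking left out Astro2 and Astro3, which held some of these genes too. Without thinning, a Slc6a11 UMI was found in 51.2% of Astro2 and 56.3% of Astro3 cells. For Aqp4 the shares were 14.3% and 24.7%, and for Cxcl5 1.19% and 2.25%, against 68.6% and 9.46% in Astro1. Astro3 cells were shallower, with a median of 708.5 UMIs against 1851.5 in Astro1, and this lowers their shares beside those of Astro1.

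Astro1 and Astro2 differed across many genes. Of 3641 genes that reached a mean of 50 CPM in either cluster, 456 (12.5%) were at least 2-fold higher in Astro1 with the same direction in all 6 libraries, and 315 (8.65%) were at least 2-fold lower. The median log2 ratio over all 3641 genes was -0.15. The ratio was taken within each library, on log2(CPM + 1), and averaged over the 6. The genes furthest above Astro2 were Igfbp2, which binds insulin-like growth factors, the transcription factors Olig2 and Etv4, Vav3, Timp4, an inhibitor of matrix proteases, Hip1, Tmem176a, Ptchd4, Brinp3 and Fzd9, a Wnt receptor. Igfbp2 was at 1346 CPM ± 297 (SD, n = 6) in Astro1 and 17.5 CPM ± 10.9 in Astro2, a log2 ratio of 6.39 ± 1.18, and the pooled counts gave an 88.3-fold difference (95% interval 48.0 to 184, counting error only). Olig2, a factor of the oligodendrocyte lineage that some astrocytes also carry, was at 84.0 CPM ± 22.4 in Astro1 and had no UMI among the 653622 of Astro2. Against the floor of 3 counts over the whole of Astro2 its level was at least 18.6-fold higher, and the same bound was 16.0-fold for Vav3, 15.6-fold for Etv4, 13.3-fold for Ptchd4 and 11.1-fold for Fzd9. The log2 ratios that ranked these genes rest on the 1 CPM added, as Astro2 had no UMI of them. Olig1 went the same way (193 against 21.9 CPM), and both stayed below the oligodendrocyte precursor cluster, where Olig2 was at 776 CPM. The 6 precursor markers, of which Olig1 and Olig2 are 2, summed to between 206 and 346.5 CPM per library in Astro1 and between 39.5 and 111 CPM in Astro2.

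Among the genes furthest below Astro2 were 1500015O10Rik, Emx1, Cfap126, Enkur, Mn1, Egln3, Mfap2, St8sia1 and Riiad1. 1500015O10Rik had 30 UMIs in all of Astro1, between 3.0 and 7.70 CPM per library, and between 601 and 973 CPM in Astro2, a log2 ratio of -7.08 ± 0.50. Cfap126 and Enkur, which encode proteins of motile cilia, were at 2.2 and 1.42 CPM in Astro1 and at 76.8 and 58.1 CPM in Astro2. The forebrain factor Emx1 had 6 UMIs in Astro1, at 1.07 CPM against 56.8 CPM in Astro2. The ependymal markers summed to between 44.0 and 66.8 CPM per Astro1 library and between 68.3 and 329 CPM per Astro2 library, and one of them, Ccdc153, was at 0 in Astro1.

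The gene groups of astrocyte function were mostly higher in Astro1 than in Astro2. Of 16 genes of transmitter uptake and metabolism, 13 reached the minimum level, 8 were at least 2-fold higher and 1 was lower, with a median log2 ratio of 1.79. The glutamate transporter Slc1a2 was at 2417 CPM ± 227 against 611 ± 125, a log2 ratio of 2.00 ± 0.20. Slc7a10, which carries serine and glycine, was at 653 CPM ± 71.1 against 44.9 ± 24.3. Slc1a3, the other glutamate transporter, differed less (3492 ± 250 against 2544 ± 241 CPM), and the exception was Slc38a1, a glutamine transporter, at 36.1 CPM ± 7.70 against 183 ± 60.9. Of 17 genes of water and ion handling, 15 reached the minimum, 10 were higher and 1, the potassium channel Kcnk2, was lower, with a median of 2.31. Aqp4, the water channel, was at 1004 CPM ± 127 against 209 ± 68.5. The potassium channel Kcnj10 was at 396 CPM ± 33.8 against 175 ± 62.4 and its partner Kcnj16 at 127 ± 15.5 against 4.90 ± 5.99. The gap junction gene Gjb6 was at 448 CPM ± 80.7 against 52.5 ± 15.1, and its relative Gja1 at 2061 ± 173 against 941 ± 93.9.

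Receptors and secreted signals were also mostly higher in Astro1. Of 32 such genes 24 reached the minimum, 15 were at least 2-fold higher, none was lower, and the median log2 ratio was 1.54. The growth factor receptor Fgfr3 was at 488 CPM ± 55.4 against 55.8 ± 24.5, the adhesion receptor Adgrb1 at 1152 ± 180 against 120 ± 17.8, the chemokine Cxcl14 at 1030 ± 81.7 against 95.6 ± 63.5 and tissue factor F3 at 845 ± 47.8 against 193 ± 67.3. Ntrk2, the receptor for brain-derived neurotrophic factor, and the endothelin receptor Ednrb were nearer the other way, at 1144 CPM ± 71.0 against 1838 ± 273 and 633 ± 77.8 against 976 ± 143. Of 24 genes of matrix and synapse-shaping proteins 18 reached the minimum, 11 were higher and 1, Sparc, was lower, with a median of 1.51. These included the proteoglycans Bcan (1755 CPM ± 54.3 against 290 ± 75.4) and Ncan (693 ± 88.2 against 153 ± 55.8), and the phagocytic receptor Mertk (113 ± 30.0 against 3.97 ± 6.39).

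Other groups were divided. Of 26 genes of lipid carriage and cholesterol synthesis 22 reached the minimum, 8 were higher than in Astro2 and 1 was lower, with a median of 0.46. Apoe was at 31548 CPM ± 2017 against 15463 ± 1589 and Lcat, which esterifies cholesterol, at 711 ± 68.7 against 58.3 ± 46.4, while Dbi, an acyl-CoA-binding protein, was at 4199 ± 330 against 10599 ± 1428. Of 23 transcription factors of the astrocyte lineage 21 reached the minimum, 6 were higher (Hes5, Id2, Id3, Npas3, Dbx2 and Hopx), 3 were lower (Nfix, Id4 and Zbtb20), and the median was 0.08. Sox9 was near equal at 279 CPM ± 18.7 against 274 ± 97.8. Of 23 genes of glycolysis, glycogen and lactate 16 reached the minimum and 6 were higher, among them the glycogen phosphorylase Pygm (93.0 CPM ± 11.1 against 12.7 ± 11.9). The metallothioneins Mt1, Mt2 and Mt3, which bind zinc and copper, were within 2-fold of Astro2, and none of the 13 genes of the mitochondrial genome was counted as 2-fold different. Of 27 immediate early and dissociation genes only 5 reached the minimum, and 3 of these (Jund, Btg2 and Hsp90aa1) were lower in Astro1.

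**Figure D2:**
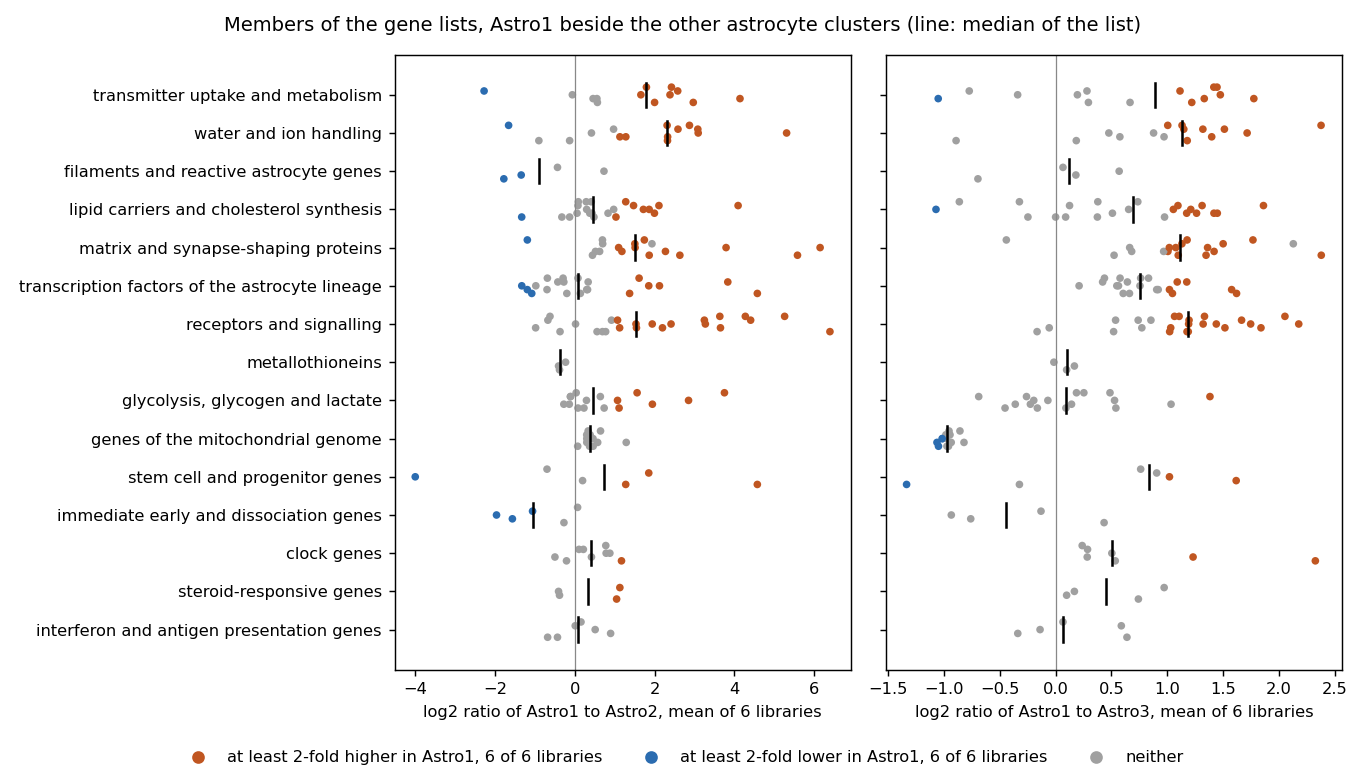
Log2 ratio of Astro1 to Astro2 (left) and to Astro3 (right) for the members of 15 gene lists that reached a mean of 50 CPM in either cluster, on log2(CPM + 1), mean of 6 libraries. Each point is 1 gene and the line is the median of its list: the medians of receptors, ion handling, transmitter and matrix genes lay right of 0 in both panels, and that of the genes of the mitochondrial genome lay left of 0 only against Astro3.

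Against Astro3 the same functional groups were higher in Astro1, by a smaller ratio. Of 3270 genes that reached the minimum, 559 (17.1%) were at least 2-fold higher in Astro1 and 176 (5.38%) at least 2-fold lower, with a median of 0.17. The split depends on what the totals hold: with mitochondrial genes left out of them it was 405 higher against 338 lower of 3871 genes, and the median was -0.04. Receptors and signals had 17 of 24 genes higher and none lower (median 1.18), matrix and synapse-shaping proteins 12 of 18 and none lower (1.1), water and ion handling 9 of 15 and none lower (1.13), and transmitter genes 7 of 14 with 1 lower (0.89). With mitochondrial genes left out of the totals these medians were 0.99, 0.92, 0.94 and 0.69. The AMPA receptor subunit Gria2 was at 2319 CPM ± 158 in Astro1, 813 ± 163 in Astro2 and 532 ± 174 in Astro3, so it was higher in Astro1 than in both. Glul, glutamine synthetase, was lower in Astro2 alone, at 3080 CPM ± 199 in Astro1, 991 ± 209 in Astro2 and 2702 ± 353 in Astro3, and Aldoc followed the same order.

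Lipid genes and transcription factors were divided against Astro3 as well, though along other genes. Of 22 lipid genes 9 were at least 2-fold higher in Astro1, among them Lcat (711 CPM ± 68.7 against 287 ± 39.8), Plpp3, Acsl6 and the cholesterol synthesis genes Sqle, Fdft1, Msmo1 and Dhcr7, and Apod, a lipocalin, was lower. Apoe and Dbi were within 2-fold (31548 CPM ± 2017 against 24505 ± 3634 and 4199 ± 330 against 4997 ± 559). Of 20 transcription factors 6 were higher (Sox9, Nfib, Hes5, Pax6, Rorb and Npas3) and none was lower. Rorb, a nuclear receptor, was at 282 CPM in Astro1, 233 CPM in Astro2 and 91.6 CPM in Astro3, so it separated Astro1 from Astro3 and not from Astro2. Id4 and Zbtb20, which were lower in Astro1 than in Astro2, were above or near their level in Astro3 (386 CPM ± 93.0 against 258 ± 79.5 and 608 ± 55.2 against 328 ± 78.4). Glycolysis genes had 1 of 17 higher, Slc16a1, a lactate transporter.

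The single genes furthest above Astro3 were Gm44257, Vav3, Lrp1b, Mical2, Malat1, Gm11713, Clmn, Fzd9, Mgat4c and Pdgfrb. Malat1, a long noncoding RNA that stays in the nucleus, was at 84368 CPM ± 10668 in Astro1, between 67996 and 95491 per library, and at 12776 CPM ± 6627 in Astro3, a log2 ratio of 2.87 ± 0.61. All 13 genes of the mitochondrial genome had a mean ratio below 0, 4 of them by at least 2-fold, and mt-Co1 was at 17436 CPM ± 2695 in Astro1 and 34230 ± 4197 in Astro3. Among the genes furthest below Astro3 were Bcas1, Gng13, Mbp, Hpcal4, Tmsb10, Mobp, S100a5, Basp1 and Gng3, most of which are best known from oligodendrocytes and neurons. Mbp, myelin basic protein, was at 689 CPM ± 76.5 in Astro1 and 2505 ± 381 in Astro3. Of 14 interneuron markers 8 of the 13 that reached the minimum were at least 2-fold lower in Astro1, and their sum was between 1100 and 1558 CPM per library in Astro1, 2514 and 4307 CPM in Astro3, and 1048 and 1601 CPM in EC1. Their part in the ratios was not tested.

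Gfap was lower in Astro1 than in the other astrocytes. It was at 206 and 207 CPM in the control libraries of Astro1, 278 and 359 CPM under occlusion and 269 and 207 CPM after training. In Astro2 the same libraries gave 977 and 1382, 894 and 439, and 684 and 1071 CPM, and in Astro3 463 and 306, 392 and 658, and 307 and 384 CPM. Every library had less Gfap in Astro1 than in either other cluster, with a log2 ratio of -1.78 ± 0.88 to Astro2 and -0.69 ± 0.35 to Astro3. In cells with at least 1000 UMIs the ratio to Astro3 was -1.62 ± 0.54. That minimum dropped between 72.0% and 92.3% of the Astro3 cells of a library, so this ratio rests on few cells. Much of the level in Astro2 came from single cells, since 1 cell held between 25% and 76.7% of the Gfap UMIs of Astro2 in a library, against between 3.59% and 12.8% in Astro1. Without that cell in each library, Astro2 was at between 172 and 630 CPM and Astro1 at between 193 and 347 CPM, and Astro2 stayed above Astro1 in 4 of the 6 libraries. In Astro3 the highest cell held between 6.33% and 28.7% of the Gfap UMIs of a library, and without it Astro3 was at between 257 and 473 CPM. Vim, the other astrocyte filament gene, was at 92.1 CPM ± 20.3 in Astro1, 236 ± 55.3 in Astro2 and 81.0 ± 17.0 in Astro3. Of 24 filament and reactive astrocyte genes only Gfap, Vim, C4b and H2-D1 reached 50 CPM, so most genes of the reactive state were at low levels in Astro1.

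**Figure D3:**
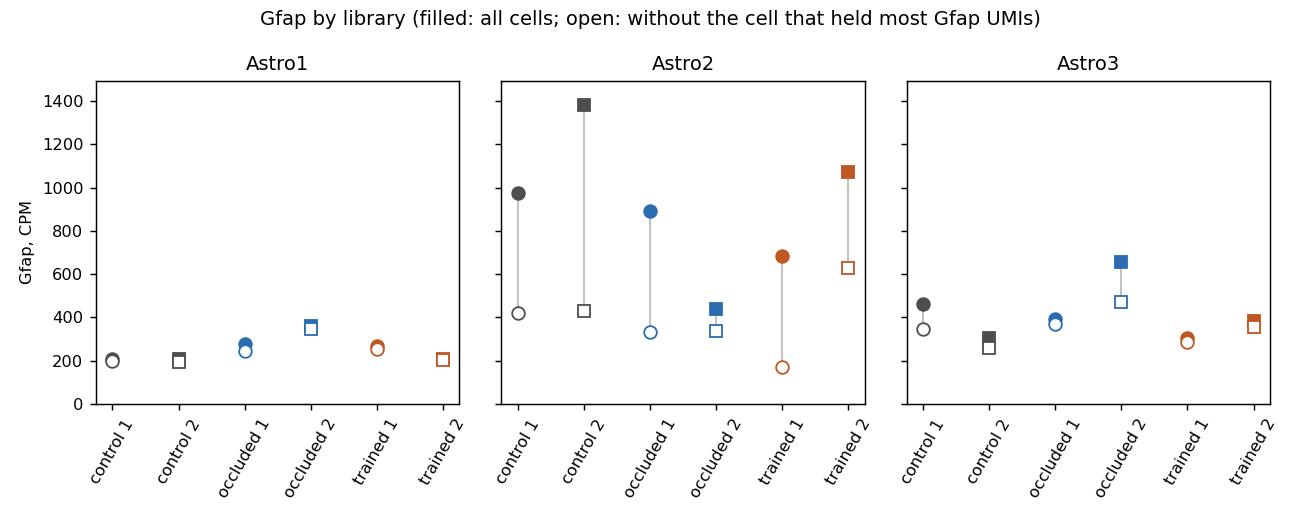
Gfap in CPM (vertical axis, from 0) in each library of Astro1, Astro2 and Astro3, with all cells (filled) and without the cell of that library that held most Gfap UMIs (open); colour marks the condition, circles replicate 1 and squares replicate 2. Removing 1 cell moved Astro2 from between 439 and 1382 CPM to between 172 and 630 CPM. Astro1 moved from between 206 and 359 CPM to between 193 and 347 CPM.

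Between conditions, the share of Astro1 among cells did not pass a test. Astro1 was 6.29% and 5.94% of cells in the control libraries, 6.64% and 7.14% under occlusion, and 4.92% and 5.74% after training. The occluded libraries were the highest and the trained libraries the lowest, without overlap. The means were 6.12% ± 0.25 (SD, n = 2), 6.89% ± 0.356 and 5.33% ± 0.582. The exact two-sided permutation test gave p = 0.333 for each pair of conditions, the smallest that 2 libraries against 2 allow. In edgeR's quasi-likelihood test over the 38 clusters the log2 change was 0.17 ± 0.26 for naris occluded against control (adjusted p = 0.731), -0.20 ± 0.26 for trained against control (0.760) and -0.37 ± 0.26 for trained against naris occluded (0.392). That test called 1 (2.63%), 0 (0.0%) and 6 (15.8%) of the 38 clusters in these comparisons, and 5, 3 and 13 had an unadjusted p under 0.05. Of the astrocytes, Astro1 made up 61.5% and 57.8% in control, 64.1% and 69.9% in occluded and 47.9% and 58.9% in trained libraries, where control and trained libraries overlapped. With cells under 1000 UMIs left out, the change between occluded and control libraries was -0.05 on the log2 scale, opposite in sign.

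Few genes passed in the comparisons of conditions within Astro1. Counts were summed over the Astro1 cells of each library, and 9623 genes passed the filter on low counts. With Benjamini-Hochberg adjusted p under 0.05 in edgeR's quasi-likelihood test, 16 genes changed between trained and control (0.166%; 11 rose and 5 fell), 19 between trained and naris occluded (0.197%; 11 rose and 8 fell) and 1 between naris occluded and control (0.0104%; it fell). The 3 comparisons share libraries and are given side by side. Unadjusted p-values under 0.05 numbered 694 (7.21%), 729 (7.58%) and 460 (4.78%). The same 2 libraries a condition left 36.4%, 36.1% and 34.2% of all genes without overlap, so a gap between groups alone is common here. The number of calls rested on single libraries: leaving out 1 library at a time gave between 2 and 45, between 7 and 80 and between 0 and 9 genes, with the highest count of the first 2 comparisons without trained replicate 2. Where this left a condition with 1 library, that library was assumed to vary like those of the other conditions. With only the 4 libraries of a comparison in the fit, the counts were 3, 12 and 5.

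The gene with the lowest p was Etnppl, which encodes the lyase that breaks down phosphoethanolamine, and which had its highest level of all 38 clusters in Astro1. It was at 203 and 157 CPM in the control libraries, 165 and 143 CPM under occlusion, and 484 and 379 CPM after training. Both trained libraries were above all 4 others. Etnppl rose by 1.24 ± 0.13 (SE) on the log2 scale against control (adjusted p = 2.89e-05, edgeR) and by 1.5 ± 0.13 against naris occluded (adjusted p = 1.23e-06). It passed in all 14 alternatives of both comparisons, with adjusted p at most 0.022 and 0.0065. In Astro3, where its level was between 31.9 and 147 CPM, the change against control was 0.93 ± 0.37 and did not pass (adjusted p = 0.997, edgeR).

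The long noncoding RNA Rmst behaved likewise at a lower level. It was at 34.6 and 26.4 CPM in control, 32.0 and 34.9 CPM in occluded and 95 and 82.0 CPM in trained libraries, again with no overlap. The change was 1.5 ± 0.21 against control (adjusted p = 0.00123) and 1.41 ± 0.20 against naris occluded (adjusted p = 0.00172, both edgeR). In Astro2, whose level was higher, Rmst was at 88.8 and 82.9, 150.3 and 154, and 207 and 220 CPM, a change of 1.30 ± 0.41 against control that did not pass (adjusted p = 0.246, edgeR). Without control replicate 2 the call in Astro1 against control was lost, and DESeq2 did not call the change against naris occluded (adjusted p = 0.0668).

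**Figure D4:**
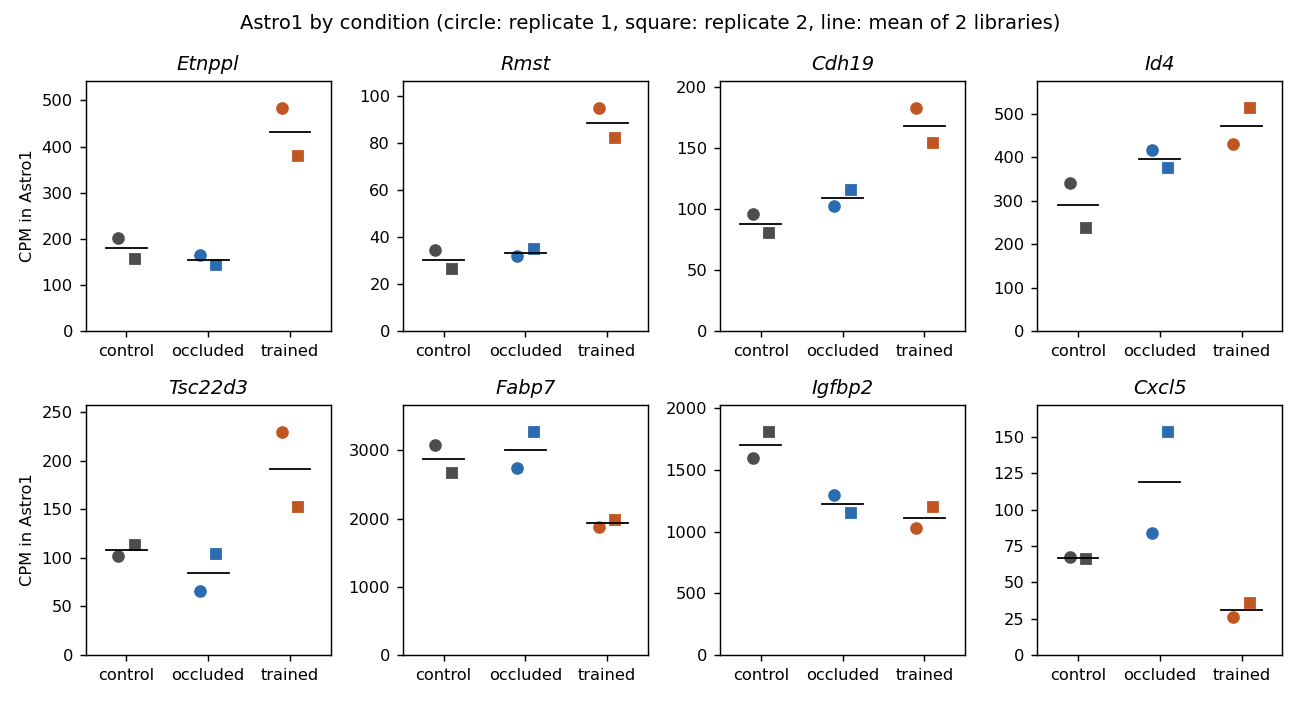
CPM in Astro1 of 8 genes (vertical axes, from 0) by condition, with a circle for replicate 1, a square for replicate 2 and a line at the mean of the 2 libraries. Etnppl, Rmst and Cdh19 were highest in both trained libraries, Fabp7 and Cxcl5 lowest in both, and Igfbp2 highest in both control libraries.

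Fabp7, Igfbp2 and Id4 were the list genes that changed between trained and control. Fabp7, the brain lipid-binding protein of radial glia and astrocytes, was at 3078 and 2670 CPM in control, 2736 and 3275 CPM in occluded and 1869 and 1985 CPM in trained libraries. The trained libraries were below the other 4, and Fabp7 fell by 0.59 ± 0.11 on the log2 scale against control (adjusted p = 0.0267) and by 0.64 ± 0.11 against naris occluded (adjusted p = 0.00731, both edgeR). It fell in Astro2 too, by 1.29 ± 0.22 against control (adjusted p = 0.000116, edgeR), and did not pass in Astro3, where only trained replicate 1 was low (2038 CPM against 3279 to 3577 CPM). Fabp7 is on the lists of lipid carriers, of stem cell and progenitor genes and of olfactory ensheathing cell markers. In EC1 it was at between 362 and 597 CPM, and after thinning to 500 UMIs a Fabp7 UMI was found in 57.4% of Astro1 cells and 17.8% of EC1 cells (83.6% and 41.4% before). Igfbp2 was at 1593 and 1811 CPM in control, 1299 and 1154 CPM in occluded and 1025 and 1196 CPM in trained libraries. Control libraries were the highest, and Igfbp2 fell by 0.63 ± 0.12 against control (adjusted p = 0.0314, edgeR), with 0.49 ± 0.12 lower in occluded libraries, which did not pass (adjusted p = 0.688). Id4, an inhibitor of proneural transcription factors, was at 340 and 239 CPM in control, 416 and 376 CPM in occluded and 431 and 514 CPM in trained libraries, and rose by 0.69 ± 0.14 against control (adjusted p = 0.0453, edgeR).

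Fabp7 and Igfbp2 were also called by DESeq2 against control (adjusted p = 0.0179 for each), and Id4 was not (0.146). The call of Fabp7 against control was lost without either control library, without occluded replicate 2, without trained replicate 1 and when only the 4 libraries compared entered the fit. Igfbp2 lost its call under those alternatives and without occluded replicate 1. Id4 lost its call without control replicate 2, without either occluded library, without trained replicate 2 and when only the 4 libraries compared entered the fit. Against naris occluded, Fabp7 was called under all alternatives but the one without occluded replicate 2.

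The other genes that rose against control were Cdh19, a cadherin (95.9 and 80.3 CPM in control, 183 and 154 CPM in trained libraries, a change of 0.92 ± 0.16, adjusted p = 0.0135 in edgeR's test), the heparan sulfate proteoglycan Sdc4, the endoplasmic reticulum stress protein Herpud1, the histone methyltransferase Kmt2a, the actin-oxidising enzyme Mical2, Azin1, which raises polyamine synthesis, Fam184a and 9330159F19Rik. Their changes were between 0.64 and 1.05 and their adjusted p in edgeR between 0.0267 and 0.0453, apart from Cdh19. Sdc4 was at 269 and 249.7 CPM in control, 307 and 256 CPM in occluded and 419.9 and 394 CPM in trained libraries. Herpud1 was at 42.4 and 35.2 CPM in control, 47.6 and 39.3 CPM in occluded and 83.0 and 80.7 CPM in trained libraries, and 9330159F19Rik at 47.2 and 41.8, 40.3 and 42.0, and 91.0 and 89.4 CPM. The occluded libraries lay with or near the control libraries in all 3. All 8 had both trained libraries above both control libraries, none was called by DESeq2, and all 8 lost the call without control replicate 1, without control replicate 2 and without trained replicate 1. The other genes that fell were Malat1, Rsrp1 and Ccdc146. Malat1 was at 95491 and 95394 CPM in control, 85476 and 84845 CPM in occluded and 67996 and 77007 CPM in trained libraries. It was highest in control and lowest in trained libraries, and fell by 0.41 ± 0.06 against control (adjusted p = 0.00132, edgeR), a call that held in 11 of 14 alternatives and was lost in DESeq2 (adjusted p = 0.146), with the replicate number as a block (adjusted p = 0.131) and with only the 4 libraries compared. Rsrp1 and Ccdc146 fell by 0.68 ± 0.13 and 1.68 ± 0.31 (adjusted p = 0.0343 and 0.0267, edgeR), and DESeq2 called Rsrp1 of these. Each held in 8 of 14 alternatives, and both lost the call without control replicate 1, control replicate 2, occluded replicate 2 or trained replicate 1 and with only the 4 libraries compared. Malat1 also fell in Astro3, by 1.13 ± 0.22 (adjusted p = 0.0267, edgeR), and in EC1 it was at 30645 and 35721 CPM in control and 29173 and 25665 CPM in trained libraries. The median share of mitochondrial UMIs in an Astro1 cell lay between 10.0% in occluded replicate 1 and 12.8% in trained replicate 1, with control and trained libraries overlapping, and its part in these changes was not tested.

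Against naris occluded, Cxcl5 had the largest fall among the called genes other than haemoglobin. It was at 67.6 and 66.0 CPM in control, 84.2 and 154 CPM in occluded and 26 and 36.0 CPM in trained libraries. In control replicate 2, 1 cell held 17 of the 60 Cxcl5 UMIs, and no Astro1 cell of another library held more than 10. The trained libraries were the lowest and the occluded the highest, with no overlap among the 3 conditions. Cxcl5 fell by 1.96 ± 0.27 on the log2 scale (adjusted p = 0.000943, edgeR), was called in all 14 alternatives (adjusted p at most 0.0441), and was called by DESeq2 with adjusted p = 0.000215. The differences from control were -1.14 ± 0.29 in trained (adjusted p = 0.166) and 0.82 ± 0.22 in occluded libraries (adjusted p = 0.712, edgeR), and neither passed. In Astro3 the same libraries gave 33.1 and 27.4, 44.6 and 112, and 10.1 and 5.56 CPM, the same order of conditions in a gene too low there to be tested.

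Tsc22d3, a gene that glucocorticoids induce, was at 102 and 113 CPM in control, 65.9 and 104 CPM in occluded and 230.0 and 153 CPM in trained libraries. Trained replicate 1 was the highest, and both trained libraries were above the others. Tsc22d3 rose by 1.19 ± 0.19 against naris occluded (adjusted p = 0.00535, edgeR) and was called by DESeq2 (adjusted p = 0.0260). The call was lost without occluded replicate 1 and without trained replicate 1. In EC1 its level was 168 and 155, 226 and 234, and 764 and 424 CPM, with the trained libraries highest there as well. Arrdc3, an arrestin-domain protein, Plce1, a phospholipase C, and Cyp2j9, a cytochrome P450, rose by 1.58 ± 0.31, 1.47 ± 0.26 and 0.72 ± 0.15 against naris occluded (adjusted p = 0.0287, 0.00910 and 0.0428, edgeR). Plce1 was at 27.5 and 37.4 CPM in control, 22.0 and 19.7 CPM in occluded and 66.0 and 48.4 CPM in trained libraries, and Arrdc3 at 20.4 and 13.2, 11 and 15.2, and 34.0 and 46.0 CPM. Both were highest in the trained libraries, without overlap. Wsb1, a subunit of a ubiquitin ligase, was at 182 and 151 CPM in occluded and 70.0 and 98.1 CPM in trained libraries and fell by 1.00 ± 0.17 (adjusted p = 0.00607, edgeR). 9330159F19Rik, Azin1, Herpud1 and, falling, Rsrp1 passed here too, and mt-Co1 rose by 0.41 ± 0.08 (adjusted p = 0.0393, edgeR), a call that held in 7 of 13 alternatives and was lost, among others, with the replicate number as a block (adjusted p = 0.131). Of the 13 genes of the mitochondrial genome 12 had a log2 difference above 0 in this comparison, where 4819 of all 9623 genes did. Of the 13, mt-Co1 alone passed, where 0.197% of all genes did. The median share of mitochondrial UMIs in an Astro1 cell was 10.0% and 10.2% in occluded and 12.8% and 11.2% in trained libraries, without overlap. Its part in these changes was not tested. Arrdc3, Plce1, Cyp2j9, Wsb1, mt-Co1, 9330159F19Rik, Azin1, Herpud1 and Rsrp1 were not called by DESeq2 in this comparison, and each of them lost its call without occluded replicate 1.

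S100a5, a calcium-binding protein of olfactory sensory neurons, was the 1 gene that changed between naris occluded and control. It was at 591 and 584 CPM in control, 246 and 105 CPM in occluded and 597 and 340 CPM in trained libraries of Astro1. Both occluded libraries were below the other 4. It fell by 1.76 ± 0.24 on the log2 scale (adjusted p = 0.00201, edgeR) and was 1.43 ± 0.24 higher in trained than in occluded libraries (adjusted p = 0.00607), and both calls were lost without occluded replicate 2 and in DESeq2, the latter one also without trained replicate 1. The gene is not one of astrocytes: the sensory neuron cluster N5 held 21296 CPM. Occluded libraries were also the lowest in Astro2, Astro3 and EC1, with 703 and 553, 278 and 141, and 621 and 354 CPM in EC1, and 765 and 1004, 253 and 102, and 748 and 453 CPM in Astro2. A S100a5 UMI was found in 54.4% and 56.3%, 32.6% and 14.8%, and 57.1% and 40.0% of Astro1 cells, and in 60.7% and 53.3%, 34.1% and 14.4%, and 55.7% and 42.6% of EC1 cells. The 8 sensory neuron markers summed to between 434 and 1123 CPM per Astro1 library and between 509 and 1182 CPM per EC1 library, with Ano2 at 0 in both. At these shares S100a5 in Astro1 lay at the level of a cell type that should lack the gene and is read as background, not as expression by Astro1. The cause of its change was not tested.

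Haemoglobin genes, which mark red blood cells, moved as well, and the source of their UMIs in Astro1 was not tested. Hbb-bs was at 143 and 47.3 CPM in control, 132 and 415 CPM in occluded and 37.0 and 47.2 CPM in trained libraries, and fell by 2.71 ± 0.42 in trained against naris occluded (adjusted p = 0.00290, edgeR). Hba-a1, Hba-a2 and Hbb-bt fell with it, by 3.38 ± 0.64, 3.80 ± 0.58 and 3.74 ± 0.76. These are pairs of near-identical copies, and how reads were divided between them is uncertain. Of 746 haemoglobin UMIs in occluded replicate 2, 616 lay in 1 cell. Without that library none of the 4 calls held, and the differences were -1.65 for Hbb-bs, -1.70 for Hba-a1, -2.69 for Hba-a2 and -3.97 for Hbb-bt, which had 21 UMIs in occluded replicate 1 and 15 in replicate 2. Occluded replicate 1 had haemoglobin UMIs in 36.6% of Astro1 cells, at most 12 in a cell, and occluded replicate 2 in 17.4%. Control replicate 1 lay between these 2 at 29.4%. Control replicate 2 had a share of 11.4%, which lay between the 9.42% of trained replicate 1 and the 11.9% of trained replicate 2. The erythroid gene Alas2 was at 0 in Astro1, and in EC1 the haemoglobin genes had another order of libraries, with occluded replicate 1 and trained replicate 2 highest.

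**Figure D5:**
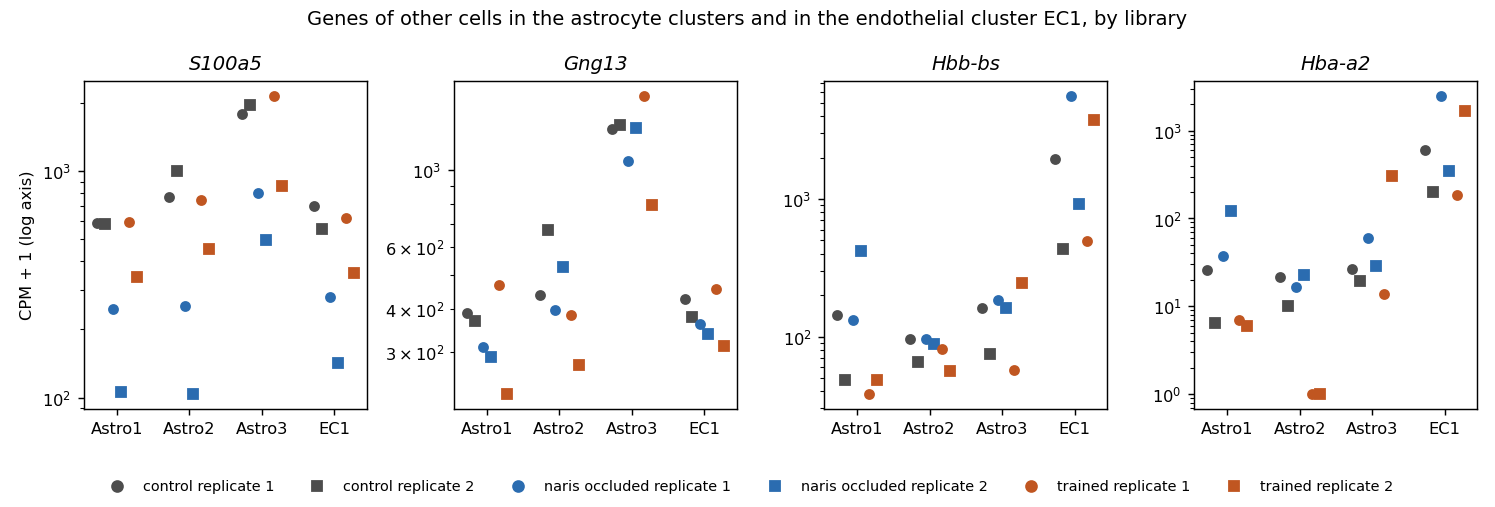
CPM + 1 (log axis) of S100a5 and Gng13, genes of sensory neurons, and of the haemoglobin genes Hbb-bs and Hba-a2, in Astro1, Astro2, Astro3 and the endothelial cluster EC1, 1 point per library (colour: condition, circle: replicate 1, square: replicate 2). S100a5 was lowest in both occluded libraries in all 4 clusters, and haemoglobin in Astro1 was highest in occluded replicate 2.

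Few genes of the lists of astrocyte functions were called between conditions, where at most 0.197% of all genes were. None of the 16 genes of transmitter uptake and metabolism, the 17 of water and ion handling or the 23 tested genes of matrix and synapse-shaping proteins was called. Aqp4 was at 815 and 981 CPM in control, 1144 and 1151 CPM in occluded and 981 and 953 CPM in trained libraries, a change of 0.34 with occlusion (unadjusted p = 0.011, adjusted p = 0.911, edgeR). Gjb6 was at 378 and 430 CPM in control, 445 and 351 CPM in occluded and 552 and 533 CPM in trained libraries, a difference of 0.41 between trained and control (adjusted p = 0.386, edgeR). Of 25 tested lipid genes, Fabp7 alone passed, of 31 receptor and signal genes Igfbp2 alone, and of 23 transcription factors Id4 alone, in trained against control (0.166% of all genes). Fabp7 also passed against naris occluded. Unadjusted p-values under 0.05 in trained against control were found for 4 of 16 transmitter genes (25%) and 7 of 23 transcription factors (30.4%), where 7.21% of all genes had one, and in trained against naris occluded for 1 of 16 and 9 of 23 (39.1%), where 7.58% had one. The lists were chosen with earlier results of these data known, so these shares are not a test. For Slc6a11 and Atp1b2 the 6 libraries spanned 2893 to 3389 CPM and 1313 to 1430.5 CPM.

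After Hba-a2, Gfap had the lowest p of the genes that did not pass between naris occluded and control. Its values in Astro1, given above, put both occluded libraries above both control libraries, a difference of 0.61 ± 0.13 on the log2 scale (unadjusted p = 0.000148, adjusted p = 0.446, edgeR), and trained replicate 1 lay between them. Without the highest cell of each library, Gfap was at 198 and 193 CPM in control and at 244 and 347 CPM in occluded libraries. Its adjusted p ranged from 0.00419 to 1 over 14 alternatives. The remaining genes of lowest p were Hba-a2, Hba-a1 and Scg2, a granin of neurons, which was at 41.7 and 58.3 CPM in control and 23.8 and 23.2 CPM in occluded libraries (-1.07 ± 0.25, adjusted p = 0.601, edgeR). Of 8 tested filament and reactive genes, Vim (70.0 and 80.3 CPM in control, 91.5 and 126 CPM in occluded libraries) and the complement gene C4b (77.0 and 77.0 CPM in control, 120.0 and 122 CPM in occluded, 111 and 160 CPM in trained libraries) also had unadjusted p under 0.05 with occlusion, so 3 of the 8 did (37.5%), where 4.78% of all genes had one. None of the 8 passed, and the list was chosen with earlier results of these data known, so its share is not a test.

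Whether a condition moved a gene differently in Astro1 than in the other astrocytes was tested by an interaction term, the change in Astro1 minus the change in the other cluster. Against Astro2, 3 of 8400 genes were called for naris occluded against control (0.0357%), Igfbp5, Fabp7 and Gfap, and 1 for trained against control (0.0119%), the neuropeptide gene Npy. Against Astro3, 1 of 8665 genes was called for naris occluded against control (0.0115%) and 2 for trained against control (0.0231%), all of them alpha-globin genes. The Gfap term was 1.47 on the log2 scale (adjusted p = 5.92e-09, edgeR's quasi-likelihood test). In the fit against Astro2 the typical gene's spread was taken from all genes together. A gene's own spread between libraries thus had no weight in the p-value. Limma on the log2 ratios gave 1.47 ± 0.54 (SE) for Gfap (adjusted p = 0.999). Without occluded replicate 2 the edgeR term was 0.89, and without occluded replicate 1 it was 2.2. In Astro2, Gfap was at 977 and 1382 CPM in control and at 894 and 439 CPM under occlusion, and 1 cell held 59.4% and 70.7% of its UMIs in the control libraries and 64.6% and 25% in the occluded libraries there. Without occluded replicate 2 none of the 3 genes was called against Astro2, and limma on the log2 ratios called no gene in any of these comparisons, with 247 and 594 genes at an unadjusted p under 0.05 against Astro2 and 452 and 316 against Astro3.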

How the data were processed

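Single-cell suspensions of olfactory bulb were profiled by the study with the 10x Chromium 3′ chemistry in 6 libraries. The deposited table holds UMI counts of 18560 genes in 52549 barcodes, made by the authors with Cell Ranger 2.0.0 on the mm10 build (submitters' processing notes), without normalization. The deposited annotation gives each of 51426 cells a cluster that the authors called with Seurat 2.2.1, a library, and the mitochondrial fraction of its UMIs. Cells were taken by cluster name, and the library by the annotated identity, since in 17275 cells of the trained libraries the start of the cell name gives the other trained library. The names Astro2 and Astro3 are those of the annotation, and the study's own table of clusters uses them the other way round. The UMI sum of 872 Astro1 cells differed from the annotated total. 1123 barcodes without a cluster, the authors' normalized values and their annotation of neurons were not used here. The authors removed doublets before deposit, per the study's methods, and no caller was run here.

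Counts were summed per library and cluster (Python 3.11.15, numpy 2.4.6, pandas 2.3.3, scipy 1.17.1, matplotlib 3.10.9). Levels are UMIs of a gene over the total of its library and cluster (CPM), and ratios between clusters were taken on log2(CPM + 1) within each library and counted as 2-fold where the mean was at least 1 and all 6 libraries had 1 sign, for genes with a mean of 50 CPM in either cluster. A gene with no UMI in a cluster was set at the floor of 3 counts over the cluster, and intervals are exact 95% intervals that cover counting error only. Astro1 libraries held between 805105 and 1272252 UMIs.

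Conditions were compared with edgeR 4.0.16 in R 4.3.3 (quasi-likelihood test, TMM factors, filterByExpr, all 6 libraries in 1 fit) at a Benjamini-Hochberg adjusted p under 0.05 over all genes tested. Interaction terms were fitted on the sums of both clusters. The plan named Astro2 for this test and held Astro3 to have too few cells per library, with the study's own names in mind. Under the annotation's names used here, Astro2 is the smaller cluster, with 336 cells. DESeq2 1.42.0, limma 3.58.1, a replicate block, Astro1 counts thinned to the total of Astro2, other filters, other totals and leave-one-out fits were alternatives, of which the limma fit, the use of Astro3 in the interaction and the removal of cells with a haemoglobin UMI were added after seeing the data. The scripts were tested on simulated data. The text names the 10 called genes with the largest change in each direction and comparison, the 5 genes of lowest p where fewer than 5 were called, called genes of 29 lists (15 of astrocyte functions or states and 14 of other cells), the 10 largest ratios in each direction between clusters, called interaction genes, and list genes as needed, with sex-linked genes left out. Some genes that this rule names are not reported here. The members and lists were chosen with earlier results of these data known.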

Additional observations from a re-analysis of the deposited data

Results flagged for a closer look

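Each of these results is a difference between 2 clusters in how a gene moved between conditions, by the interaction term of edgeR's quasi-likelihood test with Benjamini-Hochberg adjustment, given as the log2 change in Astro1 minus that in the other cluster. In the fit against Astro2 the typical gene's own spread between libraries had no weight in these p-values.

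For naris occluded against control, the term against Astro2 was 1.65 for Igfbp5, which binds insulin-like growth factors (adjusted p = 0.00549). Igfbp5 was at 59.0 and 38.5 CPM in control and 69.6 and 68.0 CPM in occluded libraries of Astro1, and at 287 and 433 CPM and 190 and 124 CPM in Astro2, so every occluded library was higher than control in Astro1 and lower in Astro2. The term was not called without control replicate 2 or without occluded replicate 2 (adjusted p = 1 and 0.804), nor with the Astro1 counts thinned to the total of Astro2 in each library (0.261). For Fabp7 it was 0.77 (adjusted p = 0.0316), with 3078 and 2670 CPM in control and 2736 and 3275 CPM in occluded libraries of Astro1 and 1579 and 1741 CPM and 1020.3 and 1046 CPM in Astro2. It was not called without control replicate 2, occluded replicate 1 or occluded replicate 2, nor with no filter on low counts (adjusted p = 0.0592). For Gfap it was 1.47 (adjusted p = 5.92e-09), with 0.89 without occluded replicate 2 and 2.2 without occluded replicate 1.

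For trained against control, the term against Astro2 was 1.82 for Npy (adjusted p = 0.0193). Npy was at 612 and 628 CPM in control and 728 and 674 CPM in trained libraries of Astro1, and at 383 and 267 CPM and 143 and 82.4 CPM in Astro2. Npy is also a marker of olfactory ensheathing cells. The call was lost without control replicate 1, trained replicate 1 or trained replicate 2, and with the Astro1 counts thinned (adjusted p = 0.150).

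Against Astro3 the term was 4.26 for Hba-a1 in naris occluded against control (adjusted p = 0.00197), and 2.55 without occluded replicate 2 (adjusted p = 0.915), 3.29 without control replicate 1 (adjusted p = 1) and 1.96 in cells of at least 1000 UMIs (adjusted p = 1). In trained against control it was -3.89 for Hba-a1 and -3.99 for Hba-a2 (adjusted p = 4.14e-06 and 1.71e-05). Single libraries held these haemoglobin counts, occluded replicate 2 in Astro1 and trained replicate 2 in Astro3, and without trained replicate 2 the last 2 terms were -0.69 and -0.62. Limma on the log2 ratios called none of these terms.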

How the results depend on the processing

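With the replicate number as a block, 2 genes were called for naris occluded against control, 23 for trained against control and 37 for trained against naris occluded, of which 1, 15 and 18 were among the reported 1, 16 and 19. Malat1 in trained against control and mt-Co1 in trained against naris occluded were lost with the replicate block (adjusted p = 0.131 for each). Same-numbered libraries share a number and, by their sex-linked counts, sex. Their deviations from the condition means had correlations of 0.166, 0.136 and 0.115 over genes, from 2 pairs each, and the share of Astro1 under the replicate block was 0.17, -0.20 and -0.37 on the log2 scale.

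In the same order of comparisons, no filter on low counts gave 12, 53 and 56 genes, only the 2 groups compared 5, 3 and 12, and DESeq2 0, 5 and 4 (71, 150 and 176 at an unadjusted p under 0.05). Without cells with a haemoglobin UMI 3 genes were called for naris occluded against control. Leave-one-out fits gave 0 to 9, 2 to 45 and 7 to 80 genes. For trained against control there were 5 without control replicate 1, 2 without control replicate 2, 8 and 4 without occluded replicates 1 and 2, and 12 and 45 without trained replicates 1 and 2. For trained against naris occluded the counts were 14, 15, 9, 7, 12 and 80, and for naris occluded against control 1, 1, 5, 0, 9 and 9. Each leave-one-out fit also had fewer libraries, and the cause of the shifts in count was not tested.

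The share of Astro1 in naris occluded against control was -0.0542 with cells of at least 1000 UMIs, against 0.17, the 1 result that reversed. A chi-square test on pooled cells, which treats cells as replicates, passed with 0.17, -0.23 and -0.40, and leaving out libraries gave 0.12 to 0.22, -0.31 to -0.09 and -0.49 to -0.26. The interaction against Astro2 had 3 and 1 genes, 0 and 0 in limma, 1 and 2 with Astro3 in place of Astro2, 2 for trained against control with no filter, and 0 to 5 and 1 to 3 with a library left out.

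With a minimum of 20 CPM, 787 genes were higher and 479 lower than in Astro2, and 1056 higher and 296 lower than in Astro3. With 10 CPM added in place of 1 before the ratio, 397 genes were higher and 240 lower than in Astro2, and 412 higher and 133 lower than in Astro3. The 2 control libraries alone gave 483 genes lower than in Astro2. Against Astro3, 338 genes were lower without mitochondrial totals and 105 in cells of at least 1000 UMIs. Leave-one-out counts were 460 to 479, 324 to 364, 541 to 626 and 160 to 208. The Gfap level was 233 to 264 CPM and its ratios -2.07 to -1.58 and -0.80 to -0.60. In cells of at least 1000 UMIs, of which Astro3 had few, its ratio to Astro3 was -1.62. Of the values of single genes, 417 kept their direction and side of the threshold, 197 fell short of it, 16 passed newly, 3 moved and 0 reversed. In Astro2 and Astro3, 2261 and 3293 genes passed the filter on low counts and could be tested, against 9623 in Astro1.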

Other observations

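Clock genes and steroid-responsive genes had many low p-values in trained against control. Both lists were chosen with earlier results of these data known, so their shares are a description and not a test. Of 14 tested clock genes 7 (50%) had an unadjusted p under 0.05 in edgeR's quasi-likelihood test, where 7.21% of all genes did, and none passed the adjustment. Per2, a repressor of the clock, was at 12.6 and 18.7 CPM in control, 12.8 and 12.5 CPM in occluded and 33.0 and 26.1 CPM in trained libraries. Its activator Arntl was at 57.4 and 50.6 CPM in control, 40.3 and 36.7 CPM in occluded and 33.0 and 42.2 CPM in trained libraries. Per3 was at 178 and 173 CPM in control, 176 and 159 CPM in occluded and 217 and 307 CPM in trained libraries, a difference of 0.56 ± 0.14 on the log2 scale (adjusted p = 0.182, edgeR). Trained libraries were the highest for Per2 and Per3, and for Arntl they overlapped the occluded ones. The part of the time of day at which bulbs were taken was not tested.

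Of 9 tested steroid-responsive genes 6 (66.7%) had an unadjusted p under 0.05 in trained against control, Tsc22d3, Cdkn1a, Sult1a1, Mt1, Mt2 and Per1, of which Per1 is also a clock gene. The share over all genes was 7.21%, and none of the 9 passed the adjustment. The list had a median log2 difference of 0.44, and the median over all genes tested was near 0. Mt2 was at 2336 and 2196 CPM in control, 2805 and 2801 CPM in occluded and 3037 and 3166 CPM in trained libraries, and Mt1 at 6616 and 6617, 7320 and 8415, and 8768 and 8399 CPM. Control libraries were the lowest for both. The differences between trained and control were 0.44 ± 0.10 and 0.36 ± 0.09 and did not pass in Astro1 (adjusted p = 0.0816 and 0.132, edgeR), while in Astro2 Mt2 and Mt1 rose by 0.66 and 0.59 (adjusted p = 0.0229 and 0.00130, edgeR). Cdkn1a and Sult1a1 were high in trained replicate 1 only, at 65.0 and 32.0 CPM against at most 28.6 and 15.4 CPM in the other libraries.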
